A study of Mus musculus with 16 samples.

Results

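Heat shock protein genes encode molecular chaperones, and 10 of them were followed here in sorted mouse Paneth cells across every injection group. They were chosen by name as the best known cytosolic and mitochondrial members of the family: Hspa1a, Hspa1b and Hspa8 of the Hsp70 class, Hsph1, Dnajb1, Hspb1, Hsp90aa1, Hsp90ab1, Hspd1 and Hspe1. They are 10 of the 55414 genes in the counts table, and 7 of the 10 passed the low-count filter that left 11809 genes for testing. Hspa1a, Hspa1b and Hspb1 did not pass it. The study measured bulk RNA of Paneth cells, the secretory cells at the crypt base of the small intestine, from mice given a pair of injections. PBS or DEX came first, PBS or TNF (tumour necrosis factor, an inflammatory cytokine) followed 1 h later, and the animals were sampled 3 h after that. DEX is not spelled out in the sources, but is the usual short name of dexamethasone, a synthetic glucocorticoid. The 4 groups of 4 biological replicates are named by both injections: PBS+PBS, the control that received vehicle only, then DEX+PBS, PBS+TNF and finally DEX+TNF. The labels give no genotype, age or sex, and the methods describe the sorted cells as coming from C57BL/6J mice, with crypts purified before cell sorting.

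Heat shock proteins hold unfolded proteins and help them to fold, to cross membranes or to be degraded. Hsp70 proteins bind and release their clients in an ATP cycle that Hsp40 proteins such as Dnajb1 start and that Hsp110 proteins such as Hsph1 speed up by exchanging the nucleotide. Hsp90 proteins act later on a narrower set of clients, among them steroid hormone receptors, while Hspd1 and its lid Hspe1 form the folding chamber of the mitochondrial matrix. Under stress the transcription factor Hsf1 binds heat shock elements, inverted repeats of the letters GAA, and raises a part of the family many times over. Hspa1a, Hspa1b and Hspb1 belong to that inducible part, and Hspa8 and Hsp90ab1 are the classical constitutive members. Taking a tissue apart into single cells is a known inducer of the inducible members, and these cells were dissociated and sorted before lysis.

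The letters of a heat shock element differ between promoters of the family, and 4 upstream regions are shown for that reason. Each is read 5′ to 3′ on the strand of its gene from the GRCm39 assembly, with starts from the GENCODE M39 annotation, and capitals mark the 8-letter matches GAANNTTC or TTCNNGAA (N is any base, overlapping matches joined). Hspa1a and Hspb1 stand for the stress-inducible genes and Hspa8 for the constitutive ones. Hspd1 and Hspe1 are divergent genes, and the last line is the whole 107 bases between their starts. The windows are chr17:35191133-35191382 for Hspa1a (minus strand), chr5:135916510-135916759 for Hspb1 (plus strand), chr9:40712030-40712279 for Hspa8 (plus strand) and chr1:55127184-55127290 for the shared region, written on the strand of Hspe1.
Hspa1a: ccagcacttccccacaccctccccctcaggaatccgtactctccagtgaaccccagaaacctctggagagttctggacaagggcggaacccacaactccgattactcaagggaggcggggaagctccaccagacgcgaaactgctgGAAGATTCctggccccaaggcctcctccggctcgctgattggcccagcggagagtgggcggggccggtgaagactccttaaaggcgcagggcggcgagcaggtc
Hspb1: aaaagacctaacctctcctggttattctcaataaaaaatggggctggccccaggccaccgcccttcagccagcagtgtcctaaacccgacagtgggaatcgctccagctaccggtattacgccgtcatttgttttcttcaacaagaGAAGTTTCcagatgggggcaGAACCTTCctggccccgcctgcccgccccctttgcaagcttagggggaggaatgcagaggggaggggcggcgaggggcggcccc
Hspa8: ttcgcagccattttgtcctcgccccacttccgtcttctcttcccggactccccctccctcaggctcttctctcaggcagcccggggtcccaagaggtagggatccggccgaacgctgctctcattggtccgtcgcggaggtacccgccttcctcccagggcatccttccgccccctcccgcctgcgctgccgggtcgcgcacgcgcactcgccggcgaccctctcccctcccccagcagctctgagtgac
Hspd1-Hspe1 shared: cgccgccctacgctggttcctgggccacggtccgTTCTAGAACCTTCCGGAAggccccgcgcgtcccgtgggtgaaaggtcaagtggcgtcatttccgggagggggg

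Over 250 bases upstream of the start, 6 of the 10 genes held a match of either kind, against 12.3% of 21757 protein-coding genes searched the same way. A joined match of at least 3 alternating units stood in 0.349% of those genes (76 genes), and Hspd1 and Hspe1 were the 2 members with it, since they share the stretch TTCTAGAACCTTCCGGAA. Hspa1a and Hspa1b each had the single match GAAGATTC, 104 bases upstream of the start, in sequences that differed at 3 of 250 positions. Hspb1 had a pair of matches and Hsph1 had TTCTCGAA. The remaining 4 genes had none in these windows, which says only that these letters are not there. They are Hspa8 and Hsp90ab1, and also the stress-inducible Hsp90aa1 and Dnajb1. The matches are a description of the sequence, and factor binding was not measured.

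The libraries held 7286307 to 15832111 counts. All 10 Paneth cell markers were detected, and their sum ran from 466078 to 705397 plain CPM (counts per 1000000 counts of the library), so the labelled cell type was met in every library. The alpha-defensin (Defa) genes alone took 32.2 to 59.3% of a library, and they took over 45% in PBS+TNF 1, PBS+PBS 4, DEX+PBS 3 and DEX+TNF 3. Values below are normalized CPM, scaled by trimmed mean of M-values factors of 0.418 to 1.502. Among the DEX+TNF libraries, 3 and 4 went against the second injection on their labels. The TNF-induced feedback inhibitor Nfkbia stood at 28.3 and 41.0 normalized CPM in them, compared with 330.0 and 382 in DEX+TNF 1 and 2, 277 to 337 in PBS+TNF and 15.6 to 27.3 in the groups without TNF. Group means, ranges and correlations below include these libraries. The calls, the median fold changes and the fits of Hsp90aa1 and Hspe1 are also given without them. In bulk RNA, fewer cells of a type and less RNA per cell cannot be told apart.

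Compared per length of the canonical transcript, Hsp90ab1 was the most abundant member at a mean of 129 normalized CPM per kb over the 16 libraries, followed by Hspa8 at 85.4. Hspd1 (21.4), Hspe1 (14.9) and Hsp90aa1 (13.2) formed a middle tier, with Dnajb1 (4.51) and Hsph1 (2.30) below them on the same scale. The lowest levels were 0.124 for Hspa1b, 0.0288 for Hspa1a and 0.00411 for Hspb1. Neighbours in the order were not always distinct. Hspe1 was above Hsp90aa1 in 8 of 16 libraries, so these do not differ beyond their spread, and Hspd1 was above Hspe1 in 14 of 16. Hsp90ab1 exceeded Hspa8 in 15 of 16 libraries, Dnajb1 exceeded Hsph1 in 15 of 16, and the steps from Hspa8 to Hspd1 and from Hsp90aa1 to Dnajb1 held in all 16.

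**Figure D1:**
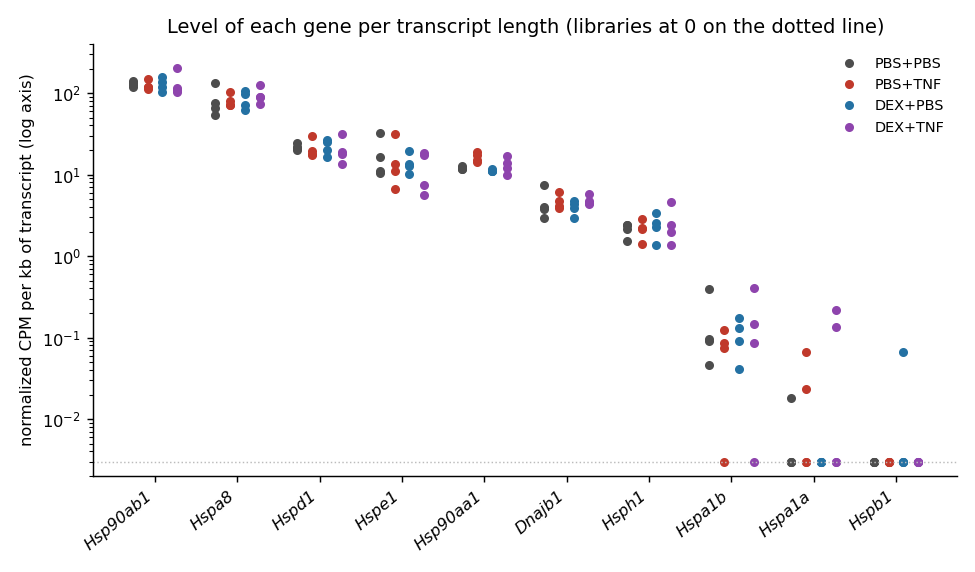
Level of each of the 10 genes in the 16 libraries, in normalized CPM per kb of canonical transcript on a log axis, with 1 point per library coloured by group. The 7 fitted genes sit at the left, from 129 down to 2.30 on average, and Hspa1b, Hspa1a and Hspb1 lie below 0.5 in every library.

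These levels carry an uncertainty that depends on sequence copies. The sources do not state which program counted the reads, how reads with several matches were treated or whether strand was used. Of the 75-base windows of the canonical transcript, 32.0% were found in no other gene for Hspa8, 38.3% for Hspa1a, 44.2% for Hspa1b, 43.2% for Hspb1 and 50.7% for Hsp90aa1. The value was 66.3% for Hspd1, 70.9% for Hspe1, 92.2% for Hsp90ab1 and 100% for both Hsph1 and Dnajb1. The copies include processed pseudogenes for most of them. Hspa1a and Hspa1b share windows with each other and with the long noncoding RNA genes Gm10501 (60 counts in all libraries) and Gm20481 (0 counts). If reads from shared windows were discarded, the level per kb of unique windows would be 275 for Hspa8 and 144 for Hsp90ab1, which turns their order around. Hsp90aa1 (26.6) would then also be above Hspe1 (23.2). The annotated span of Hspd1, on the minus strand of chromosome 1, overlaps Hspe1 on the plus strand, so without strand their reads could not be fully separated.

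Of the stress-inducible genes, Hspa1a, Hspa1b and Hspb1 were close to absent, while Hsp90aa1 and Dnajb1 had counts in all 16 libraries. So did Hsph1, Hspd1 and Hspe1, whose upstream regions held heat shock element matches, with at least 75, 246 and 54 counts per library. Hspb1, the small heat shock protein Hsp25 that binds unfolding proteins and actin, had 1 count among 206560690 counts of all libraries, in DEX+PBS 2. Hspa1a (chr17:35188166-35191132, minus strand), the inducible Hsp70, had 22 counts in all. PBS+PBS held 1 of them and PBS+TNF 5, while DEX+PBS had 0 and DEX+TNF had 16. The 16 were split evenly between DEX+TNF 1 and DEX+TNF 4. Hspa1b (chr17:35175412-35178214, minus strand), its near-identical neighbour, had 22, 14, 17 and 30 counts in the same order of groups, and 23 of the 30 were in DEX+TNF 4. Since reads of the pair cannot be assigned with confidence, their sum is the safer measure, though without the reads counted to Gm10501. It was 1.11, 0.128, 0.320 and 0.251 normalized CPM in PBS+PBS 1 to 4, and 0, 0.241, 0.281 and 0.545 in PBS+TNF 1 to 4. The DEX+PBS libraries had 0.364, 0.482, 0.115 and 0.255, and the DEX+TNF libraries 0.887, 0, 0.408 and 1.55. The groups overlapped throughout, and a count of 0 in a library allows up to 3 counts, which is 0.189 to 0.412 plain CPM at these depths. In normalized CPM the limit is higher where the scaling factor is below 1, as in PBS+TNF 1 (0.418). Such limits cover counting error only, as the reads carry no molecular identifiers. The constitutive Hspa8 stood between 128 and 319 normalized CPM in the same libraries.

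No heat shock gene passed the test in any comparison. With edgeR's quasi-likelihood test at a Benjamini-Hochberg adjusted p under 0.05, 0 of the 7 fitted genes were called between PBS+TNF and PBS+PBS, where 12.5% of all tested genes were. The count was also 0 of 7 between DEX+PBS and PBS+PBS (background 0.00847%), between DEX+TNF and PBS+TNF (0.339%) and between DEX+TNF and DEX+PBS (0.339%). Without DEX+TNF 3 and 4, where the backgrounds of the DEX+TNF comparisons were 0% and 10.5% in this order, the count stayed at 0 of 7. For the interaction, which sets the TNF difference of the DEX-treated groups against that of the groups given PBS first, it was 0 of 7 with a background of 0%. DESeq2 called 0 of 7 in each of the 5 as well. At an unadjusted p under 0.05, 1 gene, Hsp90aa1, was counted in PBS+TNF versus PBS+PBS and 0 in the other comparisons. Over all 11809 tested genes, 3116 were counted in PBS+TNF versus PBS+PBS, and 224, 1408, 1227 and 642 in the others, in the order above. The median log2 fold change of the 7 genes was -0.02 for PBS+TNF versus PBS+PBS, beside -0.03 for all tested genes. With DEX+PBS set against PBS+PBS it was -0.0019 beside -0.02, and with DEX+TNF set against PBS+TNF it was 0.03 beside 0.03. DEX+TNF against DEX+PBS gave 0.13 beside 0.03, and the interaction 0.10 beside 0.05. Without DEX+TNF 4, the medians became -0.23 against DEX+PBS, -0.18 against PBS+TNF and -0.27 in the interaction, so 1 library set their sign. Without both DEX+TNF 3 and 4 they were -0.11, -0.14 and -0.14 in the same order.

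**Figure D2:**
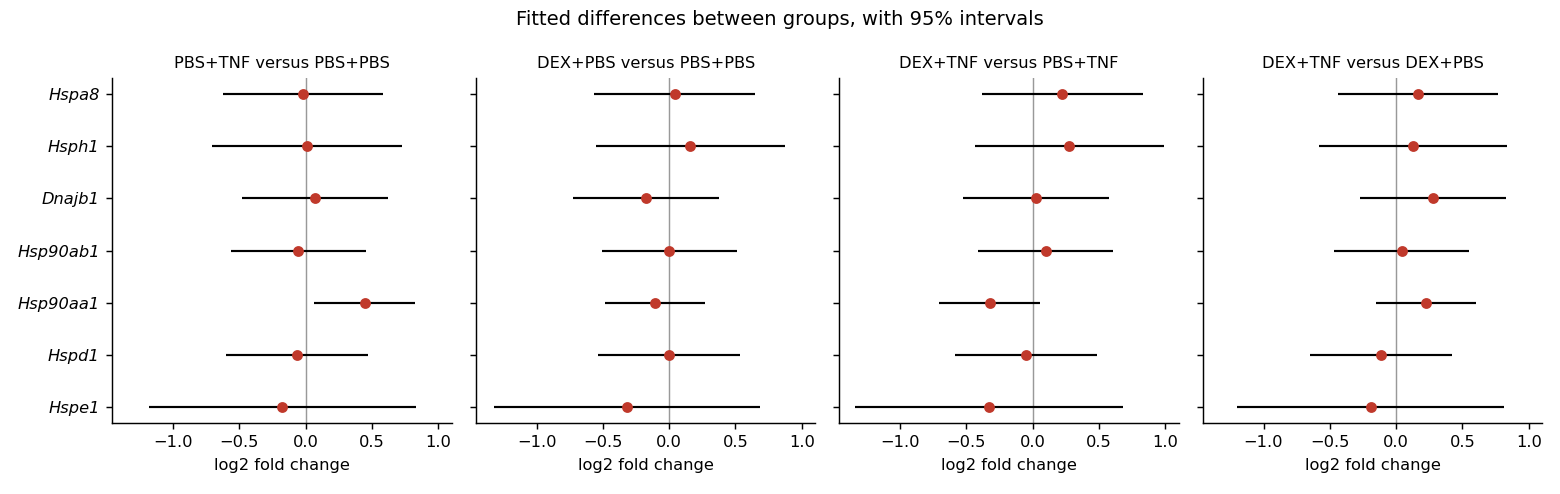
Fitted log2 fold change (points) with its 95% interval (lines) for the 7 genes that passed the low-count filter, in the 4 pairwise comparisons. All intervals include 0 except that of Hsp90aa1 in PBS+TNF versus PBS+PBS, and the intervals of Hspe1 are the widest.

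The intervals show which changes the data could have missed. For Hspa8 the 95% interval of the fold was 0.650 to 1.502 between PBS+TNF and PBS+PBS and 0.676 to 1.56 between DEX+PBS and PBS+PBS. For Hsp90ab1 they were 0.676 to 1.37 and 0.703 to 1.425, and for Hspd1 0.659 to 1.39 and 0.688 to 1.45. Larger changes than these lay outside the intervals of the abundant genes. Hspe1 was less well bounded, at 0.440 to 1.78 and 0.400 to 1.61, and its intervals admit a more than 2-fold decrease.

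Hspa8, the constitutive Hsp70, showed overlapping groups. Its normalized CPM were 180, 128, 156 and 319 in PBS+PBS 1 to 4, 245, 169, 169 and 192 in PBS+TNF, 171, 149, 255 and 232 in DEX+PBS, and 213, 175, 217 and 300 in DEX+TNF. The means were 196 ± 84.9, 194 ± 36.0, 202 ± 50.1 and 226 ± 52.5 (SD, n = 4 each), and the spread within PBS+PBS, set by its library 4, was the widest. The nucleotide exchange factor Hsph1 averaged 13.1 ± 2.57, 13.3 ± 3.57, 14.7 ± 5.12 and 15.9 ± 8.57 normalized CPM (SD, n = 4) in the same order. It varied 3.33-fold over the libraries, from 8.44 in DEX+PBS 2 to 28.1 in DEX+TNF 4. Dnajb1, the Hsp40 partner that is among the strongest Hsf1 targets in stressed cells, averaged 16.0 ± 6.98, 16.8 ± 3.59, 14.0 ± 2.76 and 17.0 ± 2.33 (SD, n = 4). Its lowest library was PBS+PBS 2 at 10.2 and its highest PBS+PBS 4 at 26.1, so the vehicle group alone covered the whole range of the gene.

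Hsp90aa1 (chr12:110656842-110669166, minus strand, GRCm39), the stress-inducible Hsp90, came closest to a difference. It was 45.2, 41.6, 41.4 and 42.2 normalized CPM in PBS+PBS 1 to 4, and 67.4, 53.4, 50.1 and 61.0 in PBS+TNF 1 to 4. All PBS+TNF libraries were above all PBS+PBS libraries, and how many of all tested genes separated in this way was not counted. The fitted fold was 1.36 (log2 0.44, SE 0.18, 95% interval of the fold 1.05 to 1.77). The edgeR adjusted p was 0.1198, with adjusted values from 0.0542 (DESeq2) to 0.357 over 28 alternatives, so the gene was not called in any of them. Upper-quartile scaling, which moved the median of all genes in this comparison to -0.15, left the gene at 0.33. The DEX+PBS libraries held 40.9, 39.5, 38.6 and 39.3, all just below the PBS+PBS libraries, with a log2 difference of -0.11 (SE 0.18, edgeR adjusted p = 1). The number of all tested genes separated like this was not counted either. In DEX+TNF the values were 49.0, 42.0, 34.9 and 59.0, which overlapped every other group. The fitted log2 difference was -0.32 (SE 0.18, edgeR adjusted p = 0.508) against PBS+TNF and 0.23 (SE 0.18, edgeR adjusted p = 0.753) against DEX+PBS. Without DEX+TNF 3 and 4 these were -0.34 and 0.20, and the edgeR adjusted p of PBS+TNF versus PBS+PBS became 0.0548. The interaction was -0.22 (SE 0.25, edgeR adjusted p = 1.00; -0.24 without DEX+TNF 3 and 4), with a 95% interval of -0.75 to 0.32, which includes 0, so a different TNF response after DEX was not shown.

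Hsp90ab1, the constitutive paralogue, averaged 349 ± 24.95, 336 ± 44.4, 349 ± 59.5 and 359 ± 129 normalized CPM (SD, n = 4) in the order of groups used above. The last spread came from 1 library: DEX+TNF 1 to 3 held 314, 296 and 277, and DEX+TNF 4 held 551. A share within a library does not depend on its scaling, and was looked at after the values had been seen. Hsp90aa1 made up 10.9% ± 1.10 of the joint Hsp90aa1 and Hsp90ab1 counts in PBS+PBS and 14.8% ± 1.86 in PBS+TNF (SD, n = 4). The ranges, 9.92 to 12.4% and 13.2 to 17.5%, did not overlap. The share was 10.4% ± 1.68 in DEX+PBS and 11.7% ± 1.65 in DEX+TNF (SD, n = 4), and these ranges overlapped those of PBS+PBS. In DEX+TNF the overlap came from libraries 3 and 4, at 11.20 and 9.68%. DEX+TNF 1 and 2 held 13.50 and 12.46%, above the highest PBS+PBS library at 12.40%. The share is a description, with no test, and how often such a share separates for other gene pairs was not counted.

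**Figure D3:**
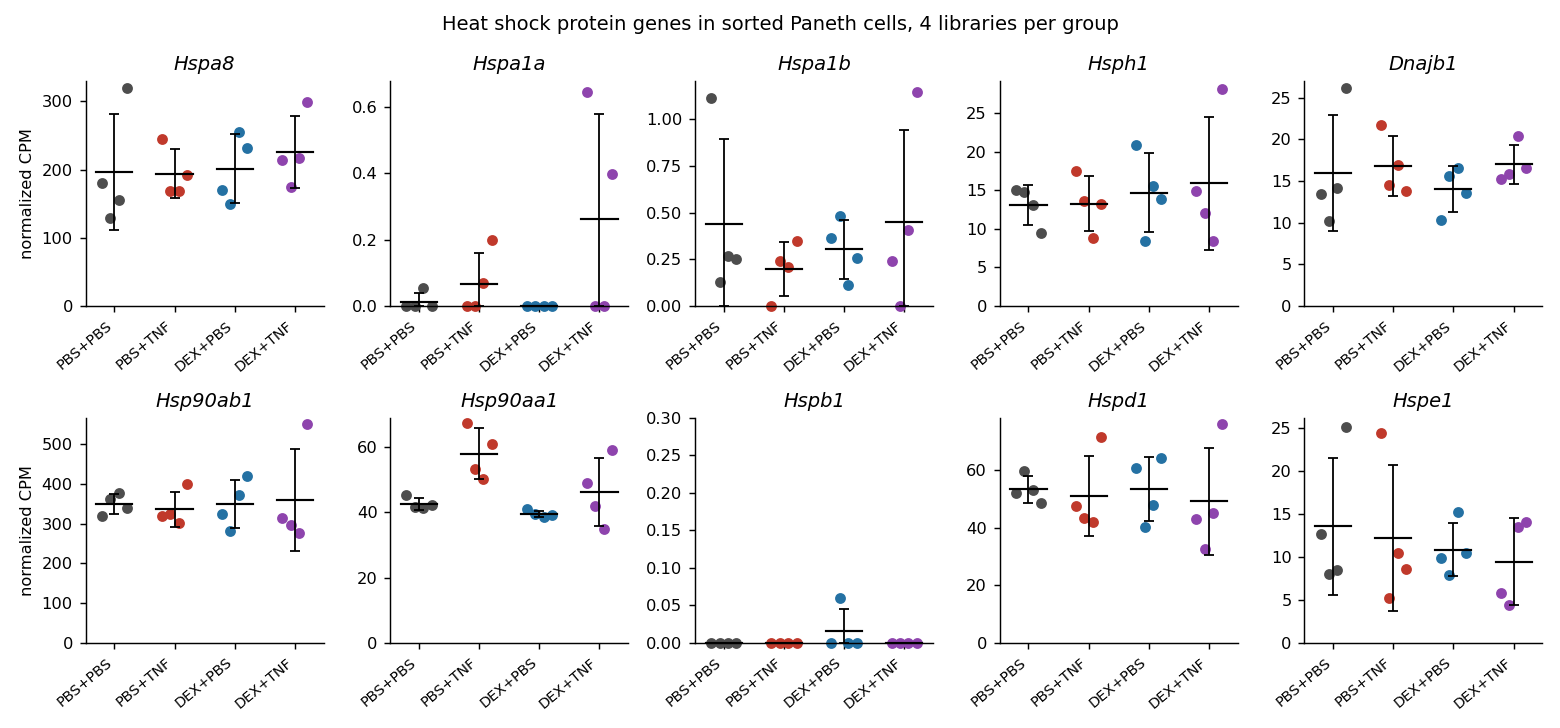
Normalized CPM of each of the 10 genes in the 4 groups, with 1 point per library, the group mean (bar) and the SD (whiskers, stopped at 0). The PBS+TNF points of Hsp90aa1 (50.1 to 67.4) lie above its PBS+PBS points (41.4 to 45.2), while the groups of the other fitted genes overlap. How many of all tested genes separate like this was not counted.

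The mitochondrial pair moved together only weakly over the 16 libraries. Hspd1 (chr1:55116989-55171038, minus strand), the chaperonin subunit, was 52.0, 59.8, 53.2 and 48.5 normalized CPM in PBS+PBS 1 to 4 and 47.4, 43.3, 41.8 and 71.6 in PBS+TNF. In DEX+PBS it was 60.8, 40.3, 48.0 and 64.2, and in DEX+TNF 43.0, 32.7, 45.2 and 76.0. No group stood apart, and library 4 was the highest of every group except PBS+PBS. Hspe1 (chr1:55127260-55130476, plus strand), its co-chaperonin, was 12.7, 8.04, 8.49 and 25.1 in PBS+PBS, 24.5, 5.19, 10.5 and 8.62 in PBS+TNF, 9.83, 7.90, 15.2 and 10.4 in DEX+PBS, and 5.81, 4.37, 13.5 and 14.1 in DEX+TNF. It varied 5.75-fold over the libraries, the most of the 7 genes, and rested on 54 to 283 counts per library. Its log2 fold changes were all below 0, at -0.18 (SE 0.48) for PBS+TNF and -0.32 (SE 0.48) for DEX+PBS against PBS+PBS, -0.33 (SE 0.48) for DEX+TNF against PBS+TNF and -0.19 (SE 0.48) against DEX+PBS, and none was called. Without DEX+TNF 3 and 4 the last pair became -1.21 and -1.08, again without a call (edgeR adjusted p = 0.504 and 0.251).

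Hspd1 and Hspe1 correlated weakly over the 16 libraries despite their shared start region (Pearson's r of log2 values 0.29). Hspd1 followed Hsp90ab1 instead, with r = 0.82, and 0.77 without DEX+TNF 4, while Hspe1 followed Hspa8 (0.67) and Dnajb1 (0.59). Hspa8 and Dnajb1 correlated at 0.69. Within groups, after removing group means, the values were 0.83 for Hsp90ab1 with Hspd1, 0.81 for Hspa8 with Hspe1 and 0.72 for Hspa8 with Dnajb1. These are descriptions over 16 libraries that share group, depth and scaling factors. The second set moved with library composition: Hspe1 correlated with the Defa share at 0.76, Dnajb1 at 0.68 and Hspa8 at 0.49, with the 2 libraries of the largest Defa share holding the highest Hspe1 values. Their correlations with the log2 scaling factor were -0.68, -0.71 and -0.44. Markers of other cells moved with both sets. The enterocyte sum, of 8 genes, correlated with Hspe1 at 0.76 and with Hspa8 at 0.61, and the goblet cell sum with Dnajb1 at 0.58. In the first set, the summed level of 5 cycling genes correlated with Hspd1 at 0.77 and with Hsp90ab1 at 0.75, and that of 4 stem cell genes at 0.70 and 0.74. None of the cycling, stem and enterocyte markers was at 0 in all libraries, and the part of either property in the heat shock levels was not tested.

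**Figure D4:**
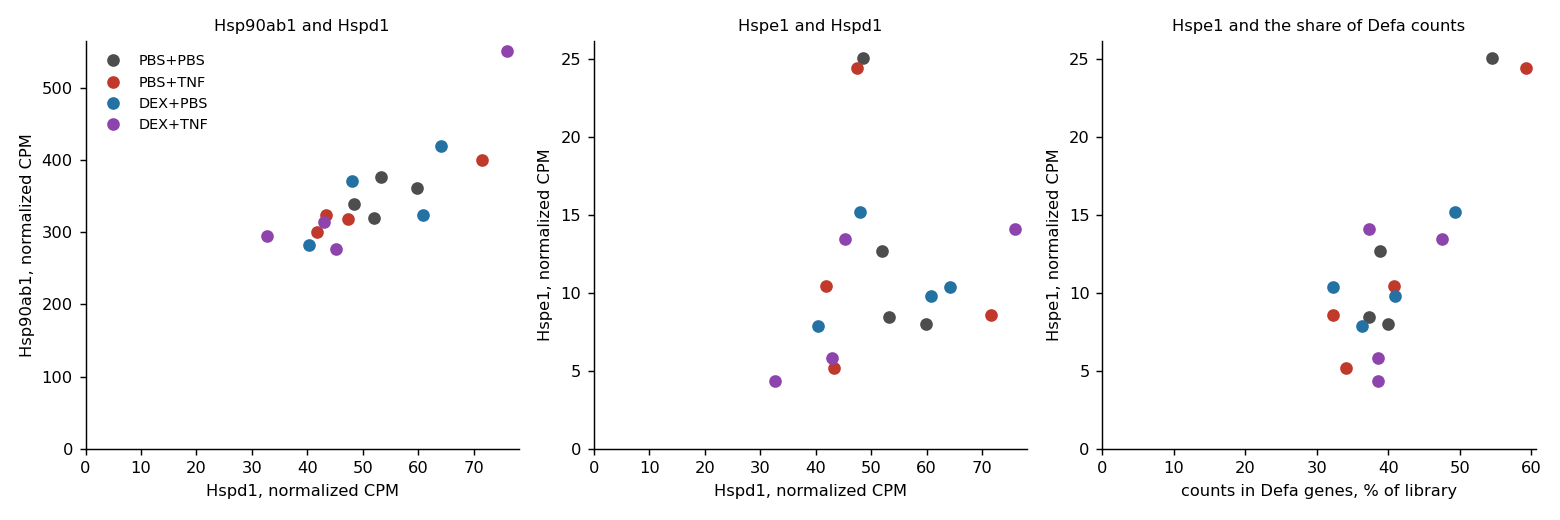
Left and middle, normalized CPM of Hsp90ab1 and of Hspe1 against Hspd1, and right, Hspe1 against the percentage of a library's counts in Defa genes, with 1 point per library coloured by group. Hsp90ab1 rises with Hspd1 (r = 0.82 on log2 values), Hspe1 does so weakly (0.29), and the highest Hspe1 values are in the 2 libraries with the largest Defa shares.

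Searching the 7810 genes that averaged 5 CPM or more for patterns like that of Hspd1 gave Mcm6 (r = 0.87), Fads1 (0.87), Tkt (0.86), Cd81 (0.84) and Ckb (0.84) over the 16 libraries. Mcm6 is a subunit of the DNA replication helicase and Tkt the transketolase of the pentose phosphate pathway. For the sum of Hspa1a and Hspa1b the most alike were Clca4b (0.74), Cdk2 (0.72), Apob (0.71), Gata4 (0.70) and B3glct (0.70), but with 0 to 31 counts per library these values are weak, and without DEX+TNF 4 they fell to between 0.51 and 0.60.

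DEX+TNF 4 stood apart in the family. All 7 fitted genes were above their median library there, by a median of 0.66 on the log2 scale, and it was the highest library for Hsph1 (28.1), Hsp90ab1 (551) and Hspd1 (76.0). It was also highest for Hspa1b, and the 10 genes summed to 1046 normalized CPM in it compared with 543 to 810 in the other libraries. The same library had the highest sums of several marker lists of other cell types. Its 5 cycling markers summed to 208 plain CPM, beside 18.7 as the lowest and 26.3 as the median of DEX+TNF and 13.4 to 167 over the other groups. Its 4 stem cell markers summed to 1825, beside 208 to 1192 over the other groups. Its 5 tuft cell markers summed to 857, beside 3.21 to 183, and its 8 enterocyte markers to 748, beside 41.6 to 199. In normalized CPM its sums were 139 (cycling), 1219 (stem), 572 (tuft) and 500 (enterocyte). The next highest libraries held 119 (DEX+PBS 4), 826 (PBS+TNF 4), 155 (DEX+TNF 3) and 395 (PBS+PBS 4), in that order. The part of these markers in the heat shock levels of DEX+TNF 4 was not tested.

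**Figure D5:**
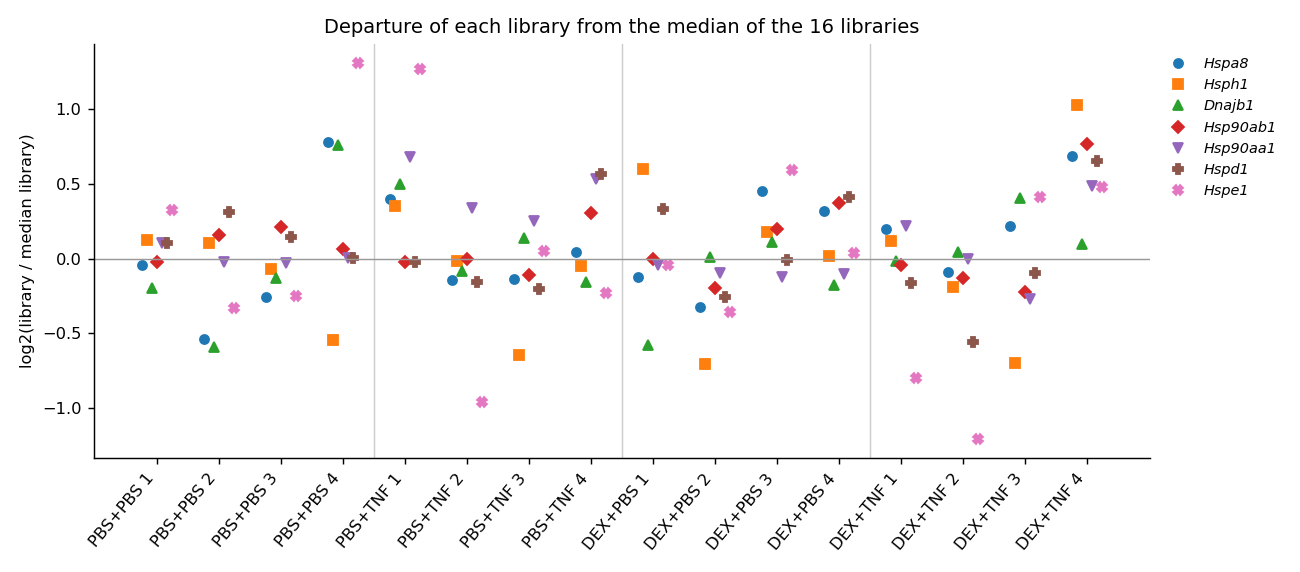
Log2 ratio of each library to the median of the 16 libraries for the 7 fitted genes, with 1 symbol per gene and vertical lines between groups. DEX+TNF 4 is the library with all 7 symbols above 0, and the extreme Hspe1 values are in PBS+PBS 4 and PBS+TNF 1 (high) and DEX+TNF 2 (low).

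The wider chaperone network was read from lists of 61 genes, of which 59 were tested: heat shock factors, other Hsp70 genes, Hsp70 and Hsp90 co-chaperones, other small heat shock genes, further mitochondrial chaperones, subunits of the cytosolic chaperonin CCT and chaperones of the endoplasmic reticulum. With edgeR, 0 of 59 were called in each of the 5 comparisons. Before adjustment, p was under 0.05 for 9 genes with TNF after PBS, for 1 with DEX alone (both against PBS+PBS), for 2 in DEX+TNF against PBS+TNF, for 4 in DEX+TNF against DEX+PBS and for 0 in the interaction. Over all 11809 genes these counts were 3116, 224, 1408, 1227 and 642. DESeq2 called 3 (Bag3, Dnaja1 and Pdia4), 1 (Fkbp5), 1 (Fkbp5), 0 and 0 of the 59, beside 17.5%, 0.0593%, 2.32%, 2.19% and 0.0762% of all tested genes. Without DEX+TNF 3 and 4, edgeR called Bag3, Fkbp4 and Hsf2 between PBS+TNF and PBS+PBS, beside 17.7% of all tested genes. It called Fkbp5 between DEX+PBS and PBS+PBS (0.0164% of all) and Fkbp4 between DEX+TNF and DEX+PBS (10.5% of all). None was called in the other comparisons (0% of all), where 3 (DEX+TNF against PBS+TNF) and 2 (interaction) had an unadjusted p under 0.05. Above 0 were 26 of 59 log2 fold changes for PBS+TNF versus PBS+PBS.

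Among Hsp70 co-chaperones, Bag3, a nucleotide exchange factor that guides Hsp70 clients to autophagy, had the largest TNF difference among those averaging 5 CPM or more. It averaged 23.3 ± 3.54 normalized CPM in PBS+PBS and 43.0 ± 5.57 in PBS+TNF (SD, n = 4), with ranges of 20.3 to 28.0 and 36.4 to 49.4. This was a log2 difference of 0.88 (SE 0.29, edgeR adjusted p = 0.0548). It just missed the threshold and was called in 10 of 28 alternatives, in which the adjusted p ran from 0.00334 to 0.132. Dnajb6 had 0.58 (SE 0.25, edgeR adjusted p = 0.149). Among Hsp90 co-chaperones, the immunophilins Fkbp4 and Fkbp5, which ride on steroid receptor complexes, had -0.77 (SE 0.29, edgeR adjusted p = 0.0987) and 0.71 (SE 0.42, edgeR adjusted p = 0.315). The small heat shock gene Hspb8, which works with Bag3, had 0.84 (SE 0.35, edgeR adjusted p = 0.127), and of the other Hsp70 genes Hspa4 had 0.37 (SE 0.17, edgeR adjusted p = 0.190) and Hspa4l 0.31 (SE 0.32).

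Among the heat shock factors, Hsf1 had a log2 fold change of 0.07 (SE 0.28) and its binding partner Hsbp1 -0.13 (SE 0.44) between PBS+TNF and PBS+PBS. Hsf2, named after its values were seen because its mean was below 5 CPM, averaged 3.11 ± 1.38 normalized CPM in PBS+PBS and 1.54 ± 0.45 in PBS+TNF (SD, n = 4), a log2 difference of -1.04 (SE 0.39, edgeR adjusted p = 0.0885) with overlapping groups. Subunits of CCT, which folds actin and tubulin, reached 0.16 (SE 0.21) for Cct2 and 0.15 (SE 0.30) for Cct3, and of the mitochondrial list Grpel1, an exchange factor of the matrix Hsp70, and Clpp, a protease subunit, had 0.44 (SE 0.42) and -0.34 (SE 0.31). In the endoplasmic reticulum, Pdia4 had -0.72 (SE 0.26, edgeR adjusted p = 0.0771) and Dnajb9 -0.51 (SE 0.43). After DEX alone the largest value of these lists was that of Fkbp5, a gene induced by glucocorticoids in many tissues, at 12.9 ± 7.06 normalized CPM in PBS+PBS and 62.8 ± 13.2 in DEX+PBS (SD, n = 4). This was a log2 difference of 2.27 (SE 0.44, edgeR adjusted p = 0.282), and it was called in 3 of 28 alternatives.

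Immediate early genes, which are switched on within minutes by many stimuli including tissue dissociation, were read beside the heat shock genes. Their levels were compared between the injection groups, and the part of dissociation in them was not tested. In the control group Fos was 70.3, 9.32, 7.64 and 22.5 and Egr1 66.5, 11.3, 9.72 and 17.6 normalized CPM in PBS+PBS 1 to 4. PBS+PBS 1, the highest for both, was also the highest control library for the Hspa1a and Hspa1b sum, with 13 counts, but not for Dnajb1 or Hspa8. DEX+TNF 4, with the highest sum of all at 31 counts, had 9.13 of Fos and 13.9 of Egr1, among the lower values. Of the 13 immediate early genes, all tested, 7 rose and 1 (Fosb) fell between PBS+TNF and PBS+PBS, beside the 12.5% of all genes called in either direction and 0 of the 7 heat shock genes. The genes that rose were Jun, Junb, Ier2, Ier3, Atf3, Zfp36 and Dusp1. Junb rose by 3.03 on the log2 scale (SE 0.49, edgeR adjusted p = 0.00128) and Atf3 by 3.12 (SE 0.71, edgeR adjusted p = 0.00856). Junb was also higher in DEX+TNF than in DEX+PBS, the only call of this list there (edgeR adjusted p = 0.0491), with 144 and 174 normalized CPM in DEX+TNF 1 and 2, 33.8 and 21.04 in DEX+TNF 3 and 4, and 13.7 to 23.1 in DEX+PBS. All 16 libraries went through the same dissociation and sorting by the sources, and no undissociated tissue was measured, so the part of dissociation in the heat shock levels was not tested. What was measured is that the inducible genes Hspa1a, Hspa1b and Hspb1 stood at or near 0 in all groups. The stress-inducible Hsp90aa1 and Dnajb1 had counts in all 16 libraries and averaged 46.6 and 15.9 normalized CPM.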

How the data were processed

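RNA of sorted Paneth cells was measured in 16 libraries, 4 per group, with groups and replicate numbers from the labels. The authors deposited raw read counts per Ensembl gene. The submitters' processing notes name FastQC 0.12, STAR 2.7.10a, DESeq2 and the mm39 build, and the libraries were made with a stranded mRNA kit. The counting program, its treatment of reads with several matches and its strand setting are not given in the sources used here. The identifiers were matched to GENCODE M39, which held 54749 of 55414. Genes were filtered with filterByExpr, and the 16 libraries entered 1 edgeR 4.0.16 quasi-likelihood fit (R 4.3.3) with 4 group means. The 5 contrasts were tested, each adjusted by Benjamini-Hochberg over the 11809 genes. The fit was run on counts simulated from its own model with large planted changes, so that check does not measure power for small changes. The SE is the log2 fold change divided by the square root of F, and 95% intervals use the t distribution with the degrees of freedom of the fit. Correlations use log2(normalized CPM + 0.5), and the search for alike genes a mean of at least 5 CPM. The alternatives were other scaling factors, other low-count filters, DESeq2 1.42.0, only the groups compared, a replicate block, each library left out, DEX+TNF 3 and 4 left out, and the Hspa1a and Hspa1b counts summed. Added after seeing the data were that sum without a filter and a fit without the libraries of over 45% Defa counts. All 10 members are named. Of the other lists, called genes were to be named, and otherwise the 2 with the largest absolute log2 fold change among those with a mean of at least 5 CPM. This is given for PBS+TNF versus PBS+PBS, with the remaining comparisons as counts and Fkbp5. The members and all lists were chosen with earlier results of these data known. Replicates are described as biological, and no pair of libraries agreed within sampling noise. The upstream sequence of 1 member is not reported here. Columns of no sample: 0.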

Additional observations from a re-analysis of the deposited data

Results flagged for a closer look

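The Hsp90ab1 level of DEX+TNF 4, 551 normalized CPM, lay far from the other libraries of its group by Dixon's test at its 95% level for 4 samples, compared with 277 to 314 in DEX+TNF 1 to 3. It was 1 such value among 28 gene and group combinations, and chance gives about 1 in 20. The library also had the highest cycling, stem, tuft and enterocyte marker sums of the series, and their part in the value was not tested. No interaction of a heat shock gene passed the threshold, so no gene is listed for a difference between the TNF effects with and without DEX.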

How the results depend on the processing

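No heat shock gene was called in any comparison in any of the 28 alternatives (27 for the interaction, which 2 groups alone cannot give), and the lowest adjusted p of a fitted member was 0.0542 (Hsp90aa1, DESeq2). Of the 35 gene and comparison pairs, 27 changed sign in at least 1 alternative and 8 did not, and all 5 pairs of Hsp90aa1 are among the latter. Leaving out 1 library at a time gave Hspe1 log2 fold changes from -0.74 to 0.27 for PBS+TNF versus PBS+PBS (highest without PBS+PBS 4), -0.52 to 0.14 for DEX+PBS versus PBS+PBS (highest without PBS+PBS 4), -0.60 to 0.24 for DEX+TNF versus PBS+TNF (highest without PBS+TNF 1) and -0.45 to 0.0431 for DEX+TNF versus DEX+PBS (highest without DEX+TNF 2). Hsph1 ran from -0.0532 to 0.36 for DEX+PBS versus PBS+PBS (lowest without DEX+PBS 1) and from -0.15 to 0.48 for DEX+TNF versus PBS+TNF (lowest without DEX+TNF 4). Without the libraries of over 45% Defa counts, Hspe1 was 0.0217 for DEX+TNF versus PBS+TNF and Hsph1 was -0.0057 for DEX+PBS versus PBS+PBS. The cause was not tested. Replicate numbers were not taken to pair the samples, since not every same-numbered pair correlated above 0.1. The correlations of their deviations ran from -0.44 to 0.50 (0.18 to 0.45 for number 2), and 7 of 16 libraries correlated best with their own number, a hint from the data only. With the replicate block 0 heat shock genes were called in each comparison, and Hsp90aa1 stood at 0.43 for PBS+TNF versus PBS+PBS (edgeR adjusted p = 0.117). Counts over all genes moved more. For DEX+TNF versus DEX+PBS the 40 calls became 259 with DESeq2, 0 with the block or with the 2 groups alone, 6 without a filter, 255 without libraries of over 45% Defa counts and 1286 without DEX+TNF 3 and 4, and ran from 0 to 362 with 1 library left out (highest without DEX+TNF 3). For DEX+TNF versus PBS+TNF the 40 became 274, 16 with the block, 0 with 2 groups, 2 without the Defa-rich libraries and 0 without DEX+TNF 3 and 4, and ran from 0 to 102 (highest without DEX+TNF 2). For PBS+TNF versus PBS+PBS the 1476 ran from 916 (without PBS+PBS 1) to 1698 with 1 library left out. DESeq2 gave 7 for DEX+PBS versus PBS+PBS against 1, and 9 for the interaction against 0. Hspa1a, Hspa1b and Hspb1 were tested singly only without a low-count filter, where 0 of 10 heat shock genes were called in each comparison. Of the other chaperone genes, for PBS+TNF versus PBS+PBS, Hspb8 was called with the replicate block and without PBS+PBS 3, Pdia4 with upper-quartile scaling, DESeq2 and without PBS+PBS 3, Fkbp4 without DEX+TNF 4 and without DEX+TNF 3 and 4, and St13 without the Defa-rich libraries.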
